A study of Mus musculus with 7 samples.

Results

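The genes described here encode pre-mRNA splicing factors and heterogeneous nuclear ribonucleoproteins (hnRNPs). They were taken by symbol: probes annotated with a single gene whose name was Srsf, Sf3a or Sf3b with a number, Snrp, Hnrnp, Prpf with a number, Lsm with a number, or U2af. Of 20355 probes on the array, 90 matched, for 58 of the 9930 genes named on it. Of these, 56 probes of 43 genes had at least 3 measured values at 3 h and 2 at 10 h and could be tested, and 34 probes (37.8%) could not. The cells were NIH3T3, a line of mouse fibroblasts that grows without limit in culture, and the series is named for overexpression of Acid1 in fibroblasts. Treated cells were taken at 3 h and at 10 h, and the labels do not name the treatment. On each of the 7 arrays RNA of treated cells was set against RNA of non-treated cells, each in its own dye. At 3 h there were 4 arrays, with the treated sample in Cy5 on replicates 1 and 2 and in Cy3 on replicates 3 and 4. At 10 h there were 3 arrays, with the treated sample in Cy5 on replicates 1 and 2 and in Cy3 on replicate 3. The labels do not say how the overexpression was driven, whether the non-treated cells carried it too, whether the cells were 1 clone, or whether each array had a culture of its own. The p-values therefore measure only how far these arrays spread, which may be technical. In bulk RNA, fewer cells of a type and less RNA per cell cannot be told apart.

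Every value is a log2 ratio within 1 array. The labels do not state its direction. It was read as treated over non-treated, the likely direction because the treated cells are channel 1 of every array whatever their dye, and "higher" and "lower" below mean higher and lower in treated cells under that reading. Each array also held 1 repeated extreme value, treated below as not measured. It was above 0 on every array with the treated sample in Cy5 (16.054 to 17.06) and below 0 on every array with it in Cy3 (-16.713 to -15.978). Ratios left as Cy5 over Cy3 would more simply carry 1 sign throughout, but the labels do not settle the direction. The other possible reading, Cy5 over Cy3 on every array, turns the sign of 3 h replicates 3 and 4 and of 10 h replicate 3, and turned the sign of 52 of the 120 fitted values (3 h, 10 h and difference) of the 40 probes that are described in full below. Those 52 values are given class by class. Because a ratio carries no level, the presence of fibroblast markers could not be checked and levels of different genes were not compared. Of 12 fibroblast markers 10 were tested on 19 probes, with median fitted log2 ratios of -0.044 at 3 h and -0.1 at 10 h and 0 passing. The lists for leukocytes, epithelium, adipocytes, muscle and neurons had between 1 and 4 tested probes each, of which 0 passed. No probe was annotated with Acid1, so its own ratio is not analysed here.

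Splicing removes introns from nuclear transcripts in the spliceosome, which is assembled on each intron from small nuclear ribonucleoproteins (snRNPs). The Sm proteins, encoded by several Snrp genes, form a ring around most of the small nuclear RNAs, and the related Lsm proteins form the ring of U6 RNA and, in other combinations, act in mRNA decay and histone mRNA processing. SF3a and SF3b belong to the U2 snRNP, which recognises the branch point, and U2AF binds the 3′ splice site. The Prpf proteins act in the later assembly and catalytic steps. SR proteins mostly promote, and hnRNPs often repress, the use of nearby splice sites. All of these are made in most cells, fibroblasts among them.

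No splicing factor or hnRNP passed the test at either time. Of the 56 probes, 0 had an adjusted p under 0.05 in limma at 3 h, at 10 h or for the difference between the times, where 0% of the 11559 probes tested on the array passed in each of the 3 comparisons. At 3 h the median fitted log2 ratio of the splicing probes was -0.1, with 22 above 0 and 34 below, against a median of -0.149 over all probes tested. At 10 h it was -0.037, with 23 above and 33 below, against -0.025 over all probes. Leaving out 1 array at a time moved the 3 h median between -0.227 (without 3 h replicate 4) and -0.011 (without 3 h replicate 3). Unadjusted p-values under 0.05 were found at 3 h for 7 of the 56 probes (12.5%), against 13.6% of all probes, at 10 h for 1 (1.79%), against 3.88%, and for the difference for 1 (1.79%), against 8.11%. The splicing probes were thus near the array's own background or below it in each comparison. The smallest adjusted p of any member was 0.278 at 3 h, and all 56 were listed at 1 at 10 h after rounding.

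**Figure D1:**
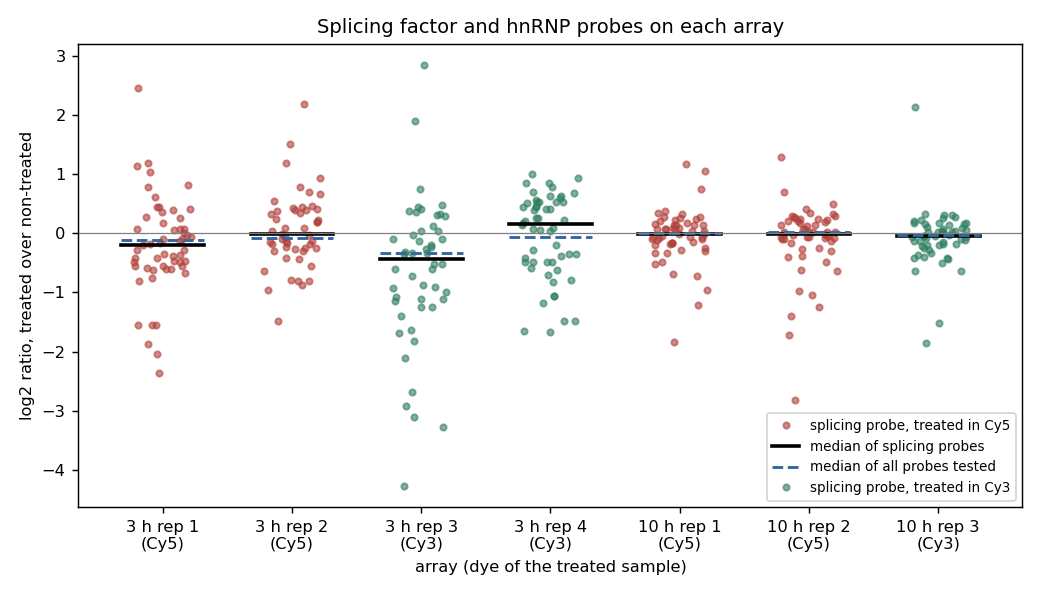
Log2 ratio (treated over non-treated, vertical axis) of each tested splicing factor or hnRNP probe on each of the 7 arrays, coloured by the dye of the treated sample; black lines are medians of these probes and dashed lines medians of all probes tested. The points scatter more on the 3 h arrays, where the medians run from -0.438 to 0.154, than on the 10 h arrays, where they run from -0.042 to -0.011.

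The splicing probes varied far less at 10 h than at 3 h. The SD between arrays had a median of 0.228 at 10 h and 0.621 at 3 h over the 56 probes, against 0.358 and 0.767 over all probes tested, and 50 of the 56 (89.3%) had the larger SD at 3 h, as did 74.1% of all probes. The array medians of the splicing probes at 3 h were -0.203, -0.021, -0.438 and 0.154, beside -0.108, -0.077, -0.326 and -0.065 for all probes tested. At 10 h they were -0.011, -0.011 and -0.042, beside 0, 0.027 and -0.028. At 3 h, between 32.7% and 35.2% of the values of these probes matched a small whole-number ratio, that is, the log2 of one whole number up to 8 over another after removal of the array's constant (tolerance 0.0015), against 45.8% to 55.6% for all probes tested. At 10 h the shares were 1.85% to 9.09%, against 8.07% to 9.43%. The part of such values in the spread was not tested. For 19 probes no value lay at such a ratio, and their median SD was 0.157 at 10 h and 0.464 at 3 h. Over all 2115 tested probes with no such value it was 0.168 and 0.566.

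**Figure D2:**
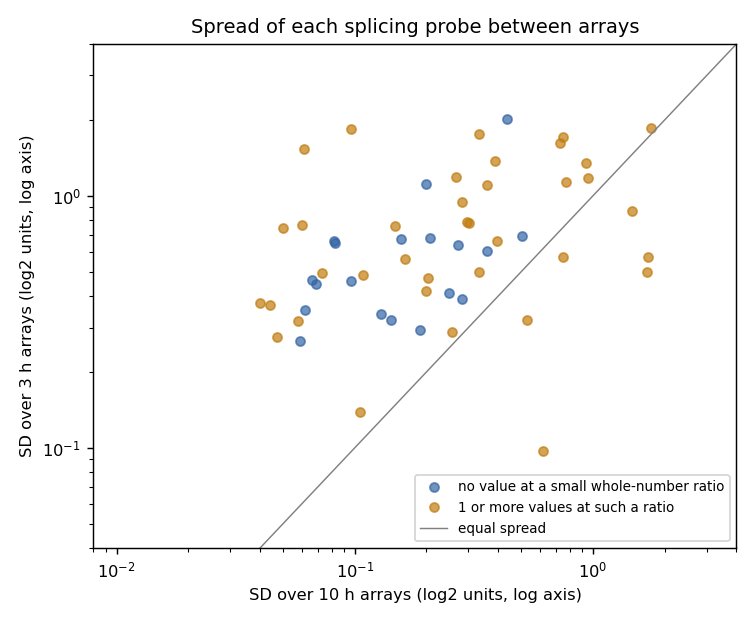
SD between the 3 h arrays (vertical, log axis) against SD between the 10 h arrays (horizontal, log axis) for each of the 56 tested splicing probes, with probes that had no value at a small whole-number ratio in blue and the others in orange. Of the 56 points, 50 lie above the line of equal spread.

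The width of the intervals sets what these arrays could show. The 95% interval of the fitted log2 ratio reached a median of 0.75 to either side at 3 h, 0.85 at 10 h and 1.14 for the difference. The fit shares 1 spread per probe over both times. With the 10 h arrays fitted alone, 0 of the 56 probes passed at 10 h either, and 2 had an unadjusted p under 0.05 (3.57%, against 7.56% of all probes). On array means, 48 of the 56 probes (85.7%) lay within 0.5 log2 units of 0 at 10 h and 38 (67.9%) at 3 h, against 77.2% and 59.8% of all probes. A change of a splicing gene well under 1 log2 unit was mostly not detectable in this fit at either time. The intervals are not adjusted for the number of probes, and larger fitted values did not pass either. Examples were -1.50 for Prpf18 at 3 h and -2.14 for Sf3a1 probe 3425 for the difference.

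Among the SR proteins, 12 probes of 9 genes were on the array and 5 probes of 4 genes were tested. Their median fitted log2 ratio was -0.186 at 3 h, with 1 of 5 above 0, and -0.038 at 10 h, with 1 of 5 above 0. Over 16 alternatives these medians ran from -0.45 (without 3 h replicate 4) to 0.0022 (read as Cy5 over Cy3) at 3 h and from -0.078 (without 3 h replicate 4) to 0.166 (read as Cy5 over Cy3) at 10 h. Srsf11, an SR-related protein of the spliceosome, had the smallest p of all splicing probes at 3 h. Its log2 ratios were -0.42, -0.79, -2.10 and -0.59 on the 4 arrays at 3 h and -0.069, -0.046 and 0.045 on the 3 arrays at 10 h. All 4 arrays were below 0 at 3 h, with replicate 3 far below the others, and the 10 h arrays lay close to 0 without overlapping the 3 h values. The fitted ratio at 3 h was -0.97 (95% interval -1.73 to -0.22), with an adjusted p = 0.278 in limma, and it turned to 0.37 under the Cy5 over Cy3 reading. For Srsf5, another SR protein, the first probe gave -0.49, -0.091, -0.60 and 0.44 on the 4 arrays at 3 h and 0.14, 0.18 and -0.19 on the 3 arrays at 10 h. The second gave -0.55, -0.32 and 0.84 on 3 h replicates 1, 3 and 4 and -0.080, -0.060 and -0.16 on the 3 arrays at 10 h. Both Srsf5 probes were below 0 on 3 h replicates 1 and 3 and above 0 on replicate 4, and both lay within 0.2 of 0 at 10 h. Srsf1, the founding member of the family, had a mean of -0.52 ± 0.76 (SD, n = 4) at 3 h and 0.072 ± 0.15 (SD, n = 3) at 10 h. Srsf3 had 0.14 ± 0.41 (SD, n = 4) and -0.002 ± 0.25 (SD, n = 3). Fitted values that turned sign when read as Cy5 over Cy3 were those of Srsf11 (0.37 at 3 h, 0.14 at 10 h and -0.23 for the difference) and Srsf5 probe 6145 (0.048 at 10 h).

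All 6 SF3 genes on the array were tested, on 10 of 11 probes. Their median was -0.15 at 3 h, with 3 of 10 above 0, and -0.035 at 10 h, with 5 of 10 above 0. Across the 16 alternatives they ran from -0.318 (without 3 h replicate 2) to 0.0096 (without 3 h replicate 3) at 3 h and from -0.119 (on gene means) to 0.12 (read as Cy5 over Cy3) at 10 h. Sf3a1, the largest SF3a subunit, held the smallest p of all splicing probes at 10 h and for the difference, but only on 1 of its 2 tested probes. That probe, numbered 3425, had log2 ratios of 2.45, 2.19 and -0.48 on 3 h replicates 1, 2 and 4 and -0.69, -0.070 and -1.52 on the 3 arrays at 10 h. It was high on both Cy5 arrays at 3 h and below 0 on all 3 arrays at 10 h, and the values of the times overlapped at the Cy3 array of 3 h. The fitted difference, 10 h minus 3 h, was -2.14 (95% interval -3.42 to -0.87), with an unadjusted p = 0.00629 and an adjusted p = 0.569, and over 13 alternatives it ran from -2.70 to -1.45 with adjusted p-values of 0.451 to 0.956. The other Sf3a1 probe, numbered 3967, gave -0.81, 1.90 and 0.94 on 3 h replicates 2, 3 and 4 and 0.75, 0.013 and 0.16 on the 3 arrays at 10 h. It was low on the Cy5 array and high on both Cy3 arrays at 3 h, the opposite of the first, and its fitted difference was -0.030 (95% interval -1.77 to 1.71). The probes of Sf3a1 were both above 0 in the 3 h fit (1.06 and 0.505) but disagreed in sign at 10 h (-1.09 and 0.48). At 10 h the first turned to 0.26 under the other reading. Every measured 3 h value of both probes matched a small whole-number ratio.

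Sf3b6, the SF3b subunit that contacts the branch point adenosine, was measured by 2 probes that agreed closely. Probe 463 had log2 ratios of -0.47, -0.42, -1.14 and 0.47 on the 4 arrays at 3 h and 0.33, 0.26 and 0.16 on the 3 arrays at 10 h. Probe 15847 had -0.58, -0.14, -0.92 and 0.18 on the 4 arrays at 3 h and 0.16, 0.34 and 0.15 on the 3 arrays at 10 h. On both probes 3 of the 4 arrays at 3 h were below 0 and the same array, replicate 4, was above, while all 3 arrays at 10 h were above 0. The means at 10 h were 0.25 ± 0.082 (SD, n = 3) and 0.21 ± 0.11 (SD, n = 3), and the fitted differences of 0.64 (95% interval -0.48 to 1.77) and 0.57 (95% interval -0.42 to 1.56) did not pass (adjusted p = 0.734 on both). Sf3b2, an SF3b subunit close to the branch point, had 3 tested probes. Probe 15698 gave 0.069, -0.25, 0.041 and 0.53 on the 4 arrays at 3 h and -0.17, 0.12 and -0.041 on the 3 arrays at 10 h. Probe 11030 gave -0.18, 0.67, -0.90 and -0.34 on the 4 arrays at 3 h and -0.17, -0.011 and -0.13 on the 3 arrays at 10 h. Probe 1852 gave -1.55, -0.036 and -0.48 on 3 h replicates 1, 2 and 4 and -0.20, -0.063 and -0.64 on the 3 arrays at 10 h. At 10 h all but 1 of these 9 values lay below 0, and the fitted values of the 3 probes at 10 h spanned 0.32. Sf3b5, a small SF3b subunit, gave 0.002, 0.080, -1.24 and -0.42 on the 4 arrays at 3 h and 0.28, -0.41 and -0.24 on the 3 arrays at 10 h. It was near 0 on the Cy5 arrays at 3 h and lower on both Cy3 arrays. Sf3b3 and Sf3a3 were within 0.2 of 0 in the fit at both times. Of the SF3 probes, the Cy5 over Cy3 reading turned the fits of Sf3a1 probe 3425 (0.26 at 10 h), Sf3a1 probe 3967 (-1.12 at 3 h and 1.22 for the difference), Sf3b2 probe 11030 (0.43 at 3 h and 0.034 at 10 h), Sf3b2 probe 15698 (-0.19 at 3 h, -0.019 at 10 h and 0.17 for the difference), Sf3b2 probe 1852 (0.30 at 10 h), Sf3b5 (0.44 at 3 h, 0.14 at 10 h and -0.30 for the difference) and Sf3b6 probe 15847 (0.006 at 3 h).

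Of the Snrp genes 8 were on the array and 5 were tested, on 5 of 12 probes. Their median was -0.858 at 3 h, with 1 of 5 above 0, and -0.143 at 10 h, with 1 of 5 above 0. The 3 h median changed sign in 1 of 16 alternatives and ran from -1.07 (without 3 h replicate 2) to 0.40 (read as Cy5 over Cy3). It was -0.244 without 3 h replicate 1, -0.301 without 3 h replicate 3 and -0.269 on gene means. The 10 h median ran from -0.46 (without 10 h replicate 3) to 0.138 (read as Cy5 over Cy3). The Sm core protein Snrpd1 had log2 ratios of -0.49, -0.64, -0.032 and 0.088 on the 4 arrays at 3 h and 0.22, 0.29 and 0.17 on the 3 arrays at 10 h. The Sm core protein Snrpd3 had -0.75, -0.16, -1.81 and -0.71 on the 4 arrays at 3 h and -0.73, 0.23 and 0.018 on the 3 arrays at 10 h. Snrpd1 was slightly above 0 on all 3 arrays at 10 h (0.23 ± 0.062 (SD, n = 3)), clear of its 3 h values, of which the highest was 0.088, and its fitted difference was 0.55 (95% interval -0.31 to 1.41) with an adjusted p = 0.696. Snrpd3 was below 0 on all 4 arrays at 3 h, at -0.86 ± 0.69 (SD, n = 4), with an unadjusted p = 0.0348 and an adjusted p = 0.326, and its fit turned to 0.40 under the Cy5 over Cy3 reading. Snrpb, another Sm core protein, lay on both sides of 0 at each time. Snrpa, the U1 protein that binds a stem-loop of U1 RNA, had -2.36, -0.33 and -0.29 on 3 h replicates 1, 3 and 4, and -0.17, -0.64 and -0.63 on the 3 arrays at 10 h, and Snrpb2, its U2 counterpart, had a mean of -1.29 ± 1.75 (SD, n = 3) at 3 h. Fits of the Snrp probes that turned under that reading were those of Snrpd3 (0.40 at 3 h, 0.016 at 10 h and -0.39 for the difference).

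The hnRNPs were the largest class, with 22 probes of 14 genes, of which 15 probes of 11 genes were tested. Their median was -0.091 at 3 h, with 7 of 15 above 0, and 0.005 at 10 h, with 9 of 15 above 0. The 3 h median changed sign in 5 of 16 alternatives and ran from -0.217 (without 3 h replicate 4) to 0.059 (without 3 h replicate 3), and the 10 h median changed sign in 4 and ran from -0.012 (without 10 h replicate 2) to 0.069 (without 10 h replicate 3). Hnrnpa2b1, a major packaging protein of nascent transcripts, had 0.067, -0.006, 0.31 and 0.063 on the 4 arrays at 3 h and -0.058, -0.095 and 0.10 on the 3 arrays at 10 h. Hnrnpa1, its close relative, had -0.17, -0.24, -0.23 and 0.68 on the 4 arrays at 3 h and 0.037, -0.097 and -0.061 on the 3 arrays at 10 h. At 10 h both stayed close to 0 on all 3 arrays. Hnrnpc, whose tetramers bind uridine tracts, had 0.17, -0.14, 0.32 and 0.51 on the 4 arrays at 3 h and -0.063, 0.022 and -0.057 on the 3 arrays at 10 h on probe 8283. On probe 19375 it had -0.098, -0.18, -0.73 and 0.046 on the 4 arrays at 3 h and 0.068, 0.27 and 0.034 on the 3 arrays at 10 h. The 2 Hnrnpc probes disagreed in sign at 3 h and lay near 0 at 10 h.

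Hnrnpu, which binds chromatin-associated RNA, showed how much the probes of 1 gene could differ at 3 h. Probe 12071 had 0.61, 0.33, -0.88 and 0.40 on the 4 arrays at 3 h and -0.15, 0.14 and 0.085 on the 3 arrays at 10 h. Probe 19636 had 0.82, 0.42, -1.64 and 0.41 on the 4 arrays at 3 h and 0.043, 0.33 and -0.052 on the 3 arrays at 10 h. Probe 9796 had -2.04, -1.48, -1.10 and 0.52 on the 4 arrays at 3 h and -0.49, -0.022 and 0.21 on the 3 arrays at 10 h. The first 2 probes followed each other array by array at 3 h, with replicate 3 alone below 0, while the third was below 0 on replicates 1 to 3. Fitted values at 3 h spanned 1.14 over the 3 probes, from -1.02 to 0.11, but at 10 h they spanned 0.12. Hnrnpab, a relative of the A proteins, had -0.36, -0.17, 0.12 and 0.70 on the 4 arrays at 3 h and 0.087, -0.045 and 0.021 on the 3 arrays at 10 h on probe 5271. On probe 3365 it had -1.55, 0.55, -3.10 and 0.26 on the 4 arrays at 3 h and 0.075, -1.40 and -0.42 on the 3 arrays at 10 h. Its second probe was far below 0 on 3 h replicates 1 and 3, and at 10 h the probes gave 0.089 and -0.66 in the fit.

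Hnrnpk, a KH-domain protein, had -0.55, -0.97 and -1.18 on 3 h replicates 1, 2 and 4 and -0.34, 0.69 and -0.042 on the 3 arrays at 10 h. It was below 0 on all 3 measured arrays at 3 h and on both sides at 10 h (3 h fit -0.95 (95% interval -1.78 to -0.12), adjusted p = 0.315), and the 3 h fit was 0.039 when read as Cy5 over Cy3. Hnrnpl, which binds CA repeats, had -0.030, 0.46, 0.48 and 0.99 on the 4 arrays at 3 h and -0.28, 0.013 and -0.37 on the 3 arrays at 10 h. Its 3 h values were above 0 on 3 of 4 arrays and its fitted difference of -0.65 (95% interval -1.60 to 0.29) did not pass (adjusted p = 0.675) and was 0.23 when read as Cy5 over Cy3. Its relative Hnrnpll had -0.81, 0.41 and 0.13 on 3 h replicates 1, 3 and 4 and -0.046, 0.49 and 0.28 on the 3 arrays at 10 h. Hnrnpa3 had 1.19, 0.92, -0.996 and -1.48 on the 4 arrays at 3 h and -1.72 and -0.40 on 10 h replicates 2 and 3, high on the Cy5 arrays and low on the Cy3 arrays at 3 h. Hnrnpm, which binds GU-rich sequences, was above 0 on all 3 arrays at 10 h, at 0.17 ± 0.044 (SD, n = 3), after -0.36 ± 0.37 (SD, n = 4) at 3 h. The hnRNP fits that changed sign when read as Cy5 over Cy3 were those of Hnrnpa3 (1.15 at 3 h), Hnrnpab probe 3365 (0.46 at 3 h and -0.50 for the difference), Hnrnpab probe 5271 (-0.34 at 3 h and -0.010 at 10 h), Hnrnpc probe 19375 (0.10 at 3 h), Hnrnpc probe 8283 (-0.20 at 3 h, -0.033 at 10 h and 0.17 for the difference), Hnrnpk (0.039 at 3 h), Hnrnpl (-0.26 at 3 h and 0.23 for the difference), Hnrnpu probe 19636 (0.13 at 10 h) and Hnrnpu probe 9796 (-0.034 at 10 h).

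For the Prpf factors 11 of 20 probes and 8 of 11 genes were tested. Their median was -0.005 at 3 h, with 5 of 11 above 0, and -0.078 at 10 h, with 4 of 11 above 0. The 3 h median changed sign in 4 of 16 alternatives and ran from -0.245 (on gene means) to 0.035 (without 3 h replicate 3), and the 10 h median changed sign in 3 and ran from -0.32 (without 10 h replicate 3) to 0.059 (without 10 h replicate 2). Prpf8, the U5 protein at the heart of the catalytic core, had 0.38, 0.091, 0.033 and 0.60 on the 4 arrays at 3 h and -0.24, -0.13 and -0.20 on the 3 arrays at 10 h. All 4 arrays were above 0 at 3 h and all 3 below 0 at 10 h, and the times did not overlap. The fitted difference was -0.46 (95% interval -1.32 to 0.41), with an adjusted p = 0.756, and it was -0.048 under the other reading. Prpf18, a second-step factor, had the lowest fitted ratio of any splicing probe at 3 h, -1.50 (95% interval -2.83 to -0.17), with an adjusted p = 0.318. It rested on the Cy3 arrays, since its values were -0.29, 0.24, -4.27 and -1.68 on the 4 arrays at 3 h and 0.25, -0.62 and -0.073 on the 3 arrays at 10 h, and it turned to 1.475 under the other reading.

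Of the tri-snRNP proteins, Prpf4 had -0.68, -0.81 and -0.63 on 3 h replicates 1, 2 and 4 and -1.20, 0.018 and -0.44 on the 3 arrays at 10 h. It was below 0 on all 3 measured arrays at 3 h and on 2 of 3 at 10 h. Prpf31 had -0.60, -0.15, 0.29 and 0.52 on the 4 arrays at 3 h and 0.17, 0.025 and 0.058 on the 3 arrays at 10 h on probe 11570. On probe 17429 it had -1.87, -0.30, -1.10 and 0.78 on the 4 arrays at 3 h and 0.26, -1.05 and 0.31 on the 3 arrays at 10 h. The first Prpf31 probe was above 0 on all 3 arrays at 10 h by at most 0.17 and the second was not. Prpf6 had a mean of 0.15 ± 0.061 (SD, n = 3) at 10 h and Prpf3 0.014 ± 0.26 (SD, n = 3). Prpf4b, a kinase of the spliceosome, had -0.098, -0.29, -0.20 and 0.57 on the 4 arrays at 3 h and -0.016, -0.48 and 0.024 on the 3 arrays at 10 h on probe 6736. On probe 7553 it had 0.45, -0.23 and -0.52 on 3 h replicates 1, 2 and 3 and -2.81 and -0.43 on 10 h replicates 2 and 3, where 1 array set the low 10 h mean. Prpf38b had 0.41, -0.062, -0.14 and 0.41 on the 4 arrays at 3 h and 0.14, 0.14 and -0.18 on the 3 arrays at 10 h on probe 6656. On probe 19306 it had 0.45, 0.77, 0.74 and -1.07 on the 4 arrays at 3 h and 0.066 and 2.13 on 10 h replicates 1 and 3, again with 1 array far from the rest. With the ratios read as Cy5 over Cy3, the Prpf fits that changed sign were those of Prpf18 (1.48 at 3 h, 0.22 at 10 h and -1.26 for the difference), Prpf31 probe 11570 (-0.39 at 3 h), Prpf38b probe 19306 (-1.03 at 10 h and -1.42 for the difference), Prpf38b probe 6656 (0.11 for the difference), Prpf4b probe 6736 (0.032 for the difference) and Prpf8 (-0.040 at 3 h). In 10 h fits the probes of Prpf4b spanned 1.52 and those of Prpf38b 1.09.

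For the Lsm proteins 8 of 11 probes and 7 of 8 genes were tested. Their median was 0.024 at 3 h, with 4 of 8 above 0, and -0.036 at 10 h, with 3 of 8 above 0. The 3 h median changed sign in 3 of the 16 alternatives and ran from -0.263 (without 3 h replicate 3) to 0.445 (with small whole-number ratios left out), with 0.299 on gene means, and the 10 h median ran from -0.402 (on gene means) to 0.048 (with small whole-number ratios left out). Lsm2, a member of both heptameric Lsm rings, had 0.069, 0.40, 0.38 and 0.85 on the 4 arrays at 3 h and -0.006, -0.080 and -0.12 on the 3 arrays at 10 h. Like Prpf8 it was above 0 on all 4 arrays at 3 h and below 0 on all 3 at 10 h, where it stayed within 0.12 of 0. Its fitted difference was -0.46 (95% interval -1.33 to 0.41), with an adjusted p = 0.758, and it turned to 0.13 under the other reading. Lsm3, its partner in both rings, had -0.41, -0.88, -1.08 and 0.45 on the 4 arrays at 3 h and 0.28, 0.40 and 0 on the 3 arrays at 10 h on probe 19424. On probe 18307 it had -1.55, 0.45, 0.44 and -0.34 on the 4 arrays at 3 h and -0.11, 0.23 and -0.33 on the 3 arrays at 10 h. The Lsm3 probes agreed in sign at 3 h in the fit but not at 10 h.

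Lsm4, a further ring member, had 1.13, 1.51, -0.10 and -1.07 on the 4 arrays at 3 h and -1.85, -0.012 and -0.50 on the 3 arrays at 10 h. It was above 0 on the Cy5 arrays and below 0 on the Cy3 arrays at 3 h, and below 0 on all 3 arrays at 10 h. Lsm1, found only in the cytoplasmic ring, had -0.13, -1.25 and -0.48 on 3 h replicates 1, 3 and 4 and -0.96, -0.98 and 0.33 on the 3 arrays at 10 h. Lsm11, a component of the U7 snRNP of histone mRNA processing, had -0.36, -0.27, -1.69 and -0.48 on the 4 arrays at 3 h and 0.37, -0.38 and 0.22 on the 3 arrays at 10 h, below 0 on all 4 arrays at 3 h and on both sides at 10 h. Lsm12 was measured on 5 arrays, with 0.43 ± 0.57 (SD, n = 3) at 3 h and -0.042 ± 1.70 (SD, n = 2) at 10 h. Lsm10, the U7 partner of Lsm11, spread from -1.65 to 2.84 at 3 h and had a mean of 0.013 ± 0.096 (SD, n = 3) at 10 h. Lsm fits that changed sign under the Cy5 over Cy3 reading were those of Lsm1 (0.39 at 3 h and -1.01 for the difference), Lsm11 (0.38 at 3 h and -0.34 for the difference), Lsm2 (-0.19 at 3 h and 0.13 for the difference) and Lsm3 probe 18307 (0.22 at 10 h). U2af2, the large subunit of U2AF, was not among the genes matched. Both U2af genes that were, U2af1 and U2af1l4, were tested. Their median was 0.095 at 3 h, with 1 of 2 above 0, and -0.162 at 10 h, with 0 of 2 above 0. The 3 h median changed sign in 4 of 16 alternatives and ran from -0.306 (read as Cy5 over Cy3) to 0.205 (without 3 h replicate 1). The 10 h median ran from -0.239 (with centring and equal spread) to 0.088 (without 10 h replicate 3). U2af1, the small subunit that reads the AG of the 3′ splice site, had -0.20, -0.44, 0.36 and 0.26 on the 4 arrays at 3 h and -0.092, -0.17 and -0.14 on the 3 arrays at 10 h. U2af1l4, a related protein, had -0.48, 0.19 and 0.64 on 3 h replicates 1, 2 and 4 and -0.52, -0.27 and -0.21 on the 3 arrays at 10 h. Both were below 0 on all 3 arrays at 10 h, at -0.13 ± 0.040 (SD, n = 3) and -0.33 ± 0.16 (SD, n = 3), and the 3 h values of U2af1 lay on both sides of that range. The fits of U2af1l4 (-0.30 at 3 h and 0.11 for the difference) changed sign when read as Cy5 over Cy3.

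**Figure D3:**
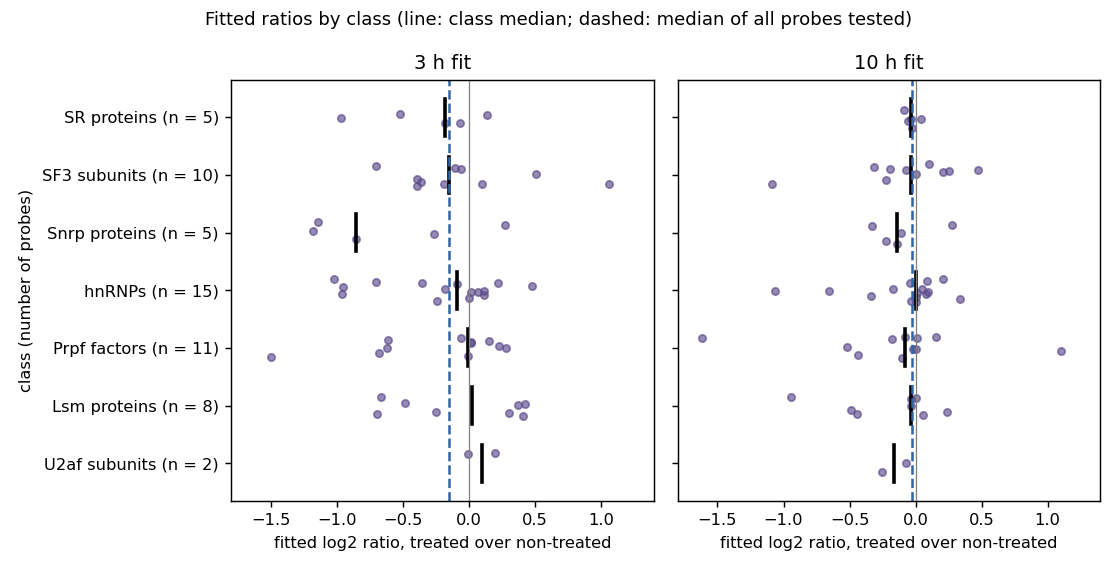
Fitted log2 ratio (treated over non-treated, horizontal axis) of each tested probe at 3 h (left) and 10 h (right), by class; black lines are class medians and the dashed line is the median of all probes tested. Most points lie nearer to 0 at 10 h, and the Snrp median of -0.858 at 3 h rests on 5 probes.

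Both U2af probes were lower on all 3 arrays at 10 h. In the other 6 classes, of 5 to 15 probes, the probes did not share 1 sign on every array at either time. A class of 2 probes shares a sign more easily than a larger one. At 3 h, of 41 splicing probes with 4 values, 2 were higher on all arrays (Prpf8 and Lsm2), where 3.86% of all such probes were, and 3 were lower on all (Srsf11, Snrpd3 and Lsm11), where 14.6% of all were. At 10 h, of 52 probes with 3 values, 9 were higher on all arrays, where 15.6% of all such probes were, and 10 were lower on all, where 14.3% were. The 9 were 1 probe each of Prpf31, Prpf6, Sf3a1, Sf3a3, Snrpd1, Hnrnpc and Hnrnpm and both probes of Sf3b6. The 10 were 2 probes of Sf3b2 and 1 each of Lsm2, Lsm4, Prpf8, Sf3a1, Srsf5, Snrpa, U2af1 and U2af1l4. Among 39 probes with all 7 values, 2 had 10 h values entirely above their 3 h values (Srsf11 and Snrpd1), where 10.2% of all such probes did, and 2 entirely below (Prpf8 and Lsm2), where 2.37% did. None of these 4 passed limma's test of the difference, whose smallest adjusted p over the 56 probes was 0.569.

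**Figure D4:**
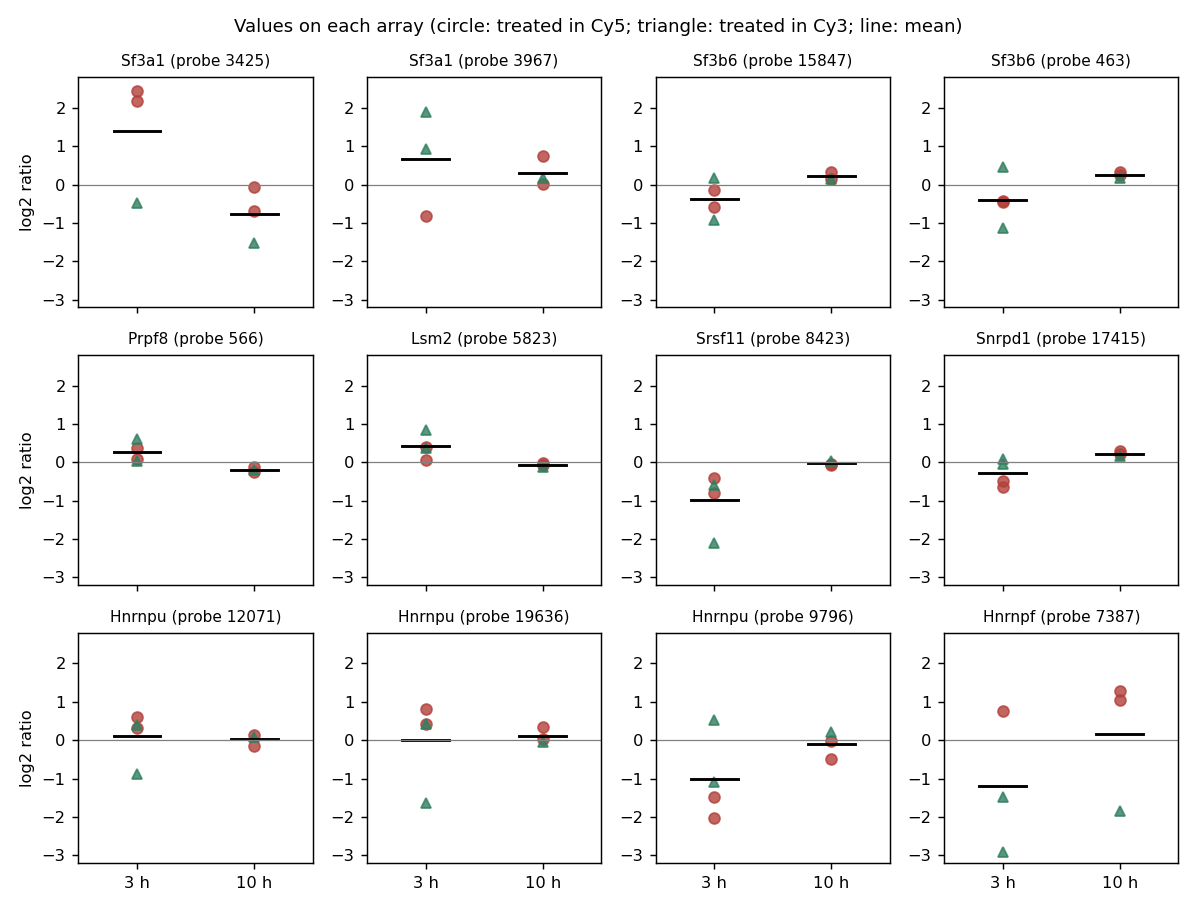
Log2 ratio on each array at 3 h and 10 h for 12 probes, with circles where the treated sample was in Cy5, triangles where it was in Cy3, and lines at the mean. At 3 h the 2 Sf3a1 probes have opposite patterns by dye, though both means are above 0. The 2 Sf3b6 probes match, and the tested Hnrnpf probe splits by dye at both times.

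The members whose times did not overlap were looked up in RefSeq (GRCm38.p6), and the 250 bases before the first listed transcript start are shown for 3 of them, chosen after their values were seen. They are printed 5′ to 3′ in the direction of the gene, with capitals at any of 6 motifs on either strand. The motifs were the CCAAT box with the letters CCAAT, the GC box with GGGCGG, an ETS site with CCGGAAG, the E-box with CACGTG, a CRE half-site with TGACGT and the TATA box with TATAAA. The window of Prpf8 is chr11:75486527-75486776 on the + strand, that of Lsm2 is chr17:34981604-34981853 on the + strand and that of Srsf11 is chr3:158036607-158036856 on the - strand. The gene record of Srsf11 reaches to base 158036667, so the end of its window, with the GC box, lies inside the annotated gene.
Prpf8: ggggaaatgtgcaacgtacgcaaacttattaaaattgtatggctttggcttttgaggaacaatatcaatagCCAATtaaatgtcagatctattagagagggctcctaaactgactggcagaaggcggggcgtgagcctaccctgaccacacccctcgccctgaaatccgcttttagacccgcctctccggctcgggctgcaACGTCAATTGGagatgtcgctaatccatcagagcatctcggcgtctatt
Lsm2: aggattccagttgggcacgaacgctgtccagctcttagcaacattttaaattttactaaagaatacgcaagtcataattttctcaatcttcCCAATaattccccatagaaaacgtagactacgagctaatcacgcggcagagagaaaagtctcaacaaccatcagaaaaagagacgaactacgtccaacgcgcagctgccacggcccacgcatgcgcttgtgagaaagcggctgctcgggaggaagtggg
Srsf11: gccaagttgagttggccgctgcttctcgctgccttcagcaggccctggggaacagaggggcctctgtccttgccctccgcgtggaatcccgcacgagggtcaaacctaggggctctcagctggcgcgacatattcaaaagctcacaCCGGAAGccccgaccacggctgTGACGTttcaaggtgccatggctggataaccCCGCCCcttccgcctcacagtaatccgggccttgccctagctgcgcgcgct
Prpf8 holds 2 CCAAT motifs, the second directly beside a CRE half-site, Lsm2 holds 1 CCAAT motif, and Srsf11 holds an ETS site, a CRE half-site and a GC box. Of the 58 genes 49 were in the promoter table. The ETS letters were in 28.6% of those 49 windows and in 7.05% of the 27025 windows of all genes, the CRE half-site in 18.4% and 6.56%, the GC box in 61.2% and 32.9%, CCAAT in 46.9% and 34.5%, the E-box in 8.16% and 6.05% and TATAAA in 10.2% and 13%. The windows of the splicing genes were also richer in G and C, with a median of 59.6% against 52%, and the part of base composition in these shares was not tested. A match in letters is a description and not a binding site.

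At 3 h the sign of some members followed the dye, at shares near those of all probes. Hnrnpf, an hnRNP which binds G tracts, had 0.77, -2.91 and -1.48 on 3 h replicates 1, 3 and 4 and 1.05, 1.29 and -1.85 on the 3 arrays at 10 h. This probe was above 0 on every measured Cy5 array and below 0 on every Cy3 array at both times, so that under the Cy5 over Cy3 reading its fitted ratios were 1.55 at 3 h and 1.57 at 10 h (adjusted p = 0.622 and 0.591). All 3 of its 3 h values matched small whole-number ratios. The same held for every measured 3 h value of Lsm4, Hnrnpm, Snrpa, both Sf3a1 probes and 1 probe each of Prpf31, Prpf4b and Sf3b2. The other Hnrnpf probe, which could not be tested, was higher on the Cy3 arrays, with 0.187, 2.897 and 1.52 on 3 h replicates 2, 3 and 4. At 3 h the sign followed the dye on 7 of the 41 splicing probes with 4 values. It was above 0 on both Cy5 arrays and below 0 on both Cy3 arrays for 4 of them (Lsm4, Prpf6, Sf3b5 and Hnrnpa3), where 8.22% of all such probes were. The opposite held for 3 (1 probe each of Prpf31, U2af1 and Hnrnpab), where 5.59% of all were. Over the 51 to 59 splicing probes measured on both arrays of a pair at 3 h, the pairs with the same dye correlated at a Pearson r of 0.61 (replicates 1 and 2) and 0.295 (replicates 3 and 4), and the 4 pairs of opposite dye at -0.239 to 0.089. Over all probes the same-dye pairs gave 0.23 and 0.089 and the opposite pairs 0.076 to 0.107. At 10 h the same-dye pair gave -0.114 and the opposite pairs -0.187 and 0.158 over 71 splicing probes. Across all probes at 10 h the same-dye pair gave 0.086 and the opposite pairs -0.119 and -0.076. These values are across probes, which are not independent and share dye, array and gene, and are given as a description. Under the Cy5 over Cy3 reading 0 splicing probes passed in any comparison, 6 had an unadjusted p under 0.05 at 3 h (10.7%, against 7.89% of all probes), and the medians over the 56 probes were -0.038 at 3 h and 0.032 at 10 h.

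More than 1 probe was tested for 11 genes. Among these the fitted values of all probes had the same sign for 5 at 3 h, 4 at 10 h and 7 for the difference. The span between the highest and lowest probe of a gene had a median of 0.456 at 3 h, 0.272 at 10 h and 0.502 for the difference, with a range of 0.045 (Sf3b6) to 1.56 (Sf3a1) at 10 h. 

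Splicing genes outside the name rule were measured with the same fit. Of a list of 120 such genes, 74 were tested on 99 probes, and 0 passed in either direction at 3 h, at 10 h or for the difference. Their median was -0.152 at 3 h, with 38 of 99 above 0, and -0.019 at 10 h, with 49 above 0, again close to all probes. Unadjusted p-values under 0.05 were found for 7 at 3 h (7.07%, against 13.6% of all probes), 2 at 10 h (2.02%, against 3.88%) and 5 for the difference (5.05%, against 8.11%). By group the 3 h medians were -0.108 for particle and tri-snRNP proteins, -0.177 for helicases, -0.152 for the Prp19 complex, -0.204 for SR-related proteins and kinases, -0.192 for other RNA-binding regulators and -0.082 for the SMN and exon junction group. At 10 h they were 0.096, -0.03, -0.102, -0.071, 0.029 and -0.041. Snrnp25, a protein of the minor spliceosome, had -1.62, -2.62, -0.69 and -0.22 on the 4 arrays at 3 h and 0.15, 0.21 and 0.41 on the 3 arrays at 10 h. All its 3 h values were below 0 and all its 10 h values above 0, without overlap, and it had the smallest p of the list at 3 h (adjusted p = 0.243 in limma). Tia1, an RNA-binding regulator, had the same signs on 1 of its 2 tested probes, with -0.41, -0.33, -1.60 and -1.21 on the 4 arrays at 3 h and 0.080, 0.48 and 0.37 on the 3 arrays at 10 h. Its other probe had -0.85, 0.049, 0.20 and 0.52 on the 4 arrays at 3 h and -0.17, 0.18 and 0.15 on the 3 arrays at 10 h, on both sides of 0 at each time. Srek1, an SR-related protein, had -1.72, -1.08, 0.31 and 0.26 on the 4 arrays at 3 h and -0.95 and -2.09 on 10 h replicates 1 and 3 on the 1 of its probes with the smallest p. Snrnp35, another protein of the minor spliceosome, had -0.81, -0.59 and -0.22 on 3 h replicates 1, 3 and 4 and -0.26, 0.43 and -5.06 on the 3 arrays at 10 h, where 1 array set the low 10 h mean. Usp39, a tri-snRNP assembly factor, was above 0 on all measured arrays with 1.19, 1.57 and 2.13 on 3 h replicates 1, 2 and 3 and 0.99 and 0.47 on 10 h replicates 1 and 3. Cwc22, which binds the exon junction helicase, had 1.62, 1.12 and -0.10 on 3 h replicates 1, 2 and 3 and -1.38 and -3.78 on 10 h replicates 1 and 2. Its fitted difference, -3.95, rested on 5 arrays and did not pass (adjusted p = 0.569).

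Of the 34 probes left out, 29 had too few values at 3 h and 11 too few at 10 h, with 6 among both. They include 19 further probes of genes that were tested and the 15 only probes of Hnrnpd, Hnrnpdl, Hnrnpul2, Lsm8, Prpf19, Prpf38a, Prpf40b, Snrpa1, Snrpc, Snrpn, Srsf10, Srsf2, Srsf4, Srsf6 and Srsf9, for which no ratio is given as a result. Just outside the minimum lay probes such as Snrpn, with 2 values at 3 h (2.22 and -1.07) and 3 at 10 h (1.32, 0.60 and 1.22). Just inside it lay Hnrnpa3, with 4 values at 3 h and 2 at 10 h. The 90 probes also held 22 copies of the repeated extreme value of their array, 19 of them at 3 h, which were treated as not measured, and 2 of the 22 were on tested probes (Hnrnpf on 3 h replicate 2 and Hnrnpk on 3 h replicate 3).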

How the data were processed

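Treated and non-treated fibroblasts were compared on 7 arrays of 2 colours. Per the labels' protocols, total RNA was purified with RNeasy kits, and its cDNA carried Cy3 or Cy5 through indirect labelling. The protocols also mention organs and a reference pooled from control animals, while the source names give fibroblasts in both channels, and these were followed. The values deposited by the authors are log2 ratios. The base 2 follows from the values. Scanner, background correction and normalization: not given in the sources used here. Values of absolute size over 15, 1 repeated value per array, were treated as missing, and arrays were not centred again. Gene names came from the platform's annotation, and all 90 gene identifiers were found in the RefSeq gene table.

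Each probe with at least 3 values at 3 h and 2 at 10 h entered 1 linear model across the 7 arrays (limma 3.58.1, R 4.3.3; lmFit, eBayes). It held 1 mean per time plus a dye coefficient. Both means and the difference were tested two-sided, with Benjamini-Hochberg adjustment over 11559 probes and a threshold of 0.05. Ratios were tested against 0, since the non-treated RNA was the other channel, so the control's own spread is left out. The same fit was tested on simulated data. The number of arrays limits the precision. Members and lists were chosen with earlier results of these data known. Genes were named by class: the 3 probes with the smallest p in each comparison (1 in a class of under 6 probes), and every gene with 2 or more tested probes; of the other splicing genes, the 3 in each comparison. Other members were named to complete a class. Deviations of same-numbered arrays of the 2 times correlated at 0.028, 0.032 and 0.091, and those of other pairs at -0.071 to 0.048. Correlations this small cannot settle whether the arrays were paired. No label says that they were, so the numbers were not taken to pair them. Alternatives covered the direction, centring, scaling, dye term, filters, gene means, the replicate block and leaving out each array.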

Additional observations from a re-analysis of the deposited data

Results flagged for a closer look

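On 30 named probes with 4 values at 3 h, the array farthest from the others was compared with the range of the group, a check that singles out about 1 in 20 groups by chance. It singled out 2. The 30 probes were named partly for their small p-values, so that rate need not hold for them. The check was not run over all probes. Lsm11 stood at -1.688 on 3 h replicate 3, against -0.480 to -0.273 on the other arrays, and Hnrnpu (probe 19636) at -1.642 on the same array, against 0.41 to 0.82. On that array the median of the splicing probes, -0.438, and that of all probes tested, -0.326, were also the lowest of the 7. Without 3 h replicate 3 the fitted 3 h ratio of this Hnrnpu probe was 0.51, against 0.002 with it. Prpf8 and Lsm2 had every 3 h value above 0 and every 10 h value below 0, with fitted differences of -0.459 and -0.46; limma's test of the difference gave adjusted p-values of 0.756 and 0.758 over all probes.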

How the results depend on the processing

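Under 17 alternatives, 0 splicing probes passed in any comparison in which they could be fitted, with the smallest adjusted p, 0.0607, for the difference with the extreme values kept. The medians of the splicing probes at 3 h and for the difference moved by less than the spread of the array medians. The 10 h median of -0.037, where that spread is small, became 0.032 under the Cy5 over Cy3 reading, -0.016 with arrays centred, -0.0078 with equal spread as well, -0.0597 with extreme values kept, -0.018 on probes with all 7 values, -0.0005 with small whole-number ratios left out and -0.078 on gene means. Leaving out each array gave -0.078 to -0.002 at 10 h, -0.227 to -0.011 at 3 h and -0.033 to 0.217 for the difference, which turned below 0 without 3 h replicate 1. With the replicate block the difference had a median of 0.238, against 0.152, and 0 probes passed. Of 1710 values of named probes under the alternatives, 196 changed sign, and 0 had passed. The Cy5 over Cy3 reading alone changed 52 of 120 (43.3%), and all other alternatives together 144 of 1590 (9.06%). The signs of many single probes thus depend on the reading of the ratio, of which treated over non-treated is the likely one. Of 336 class medians, 294 stayed within the spread of the array medians and 42 did not. With small whole-number ratios left out, 35 of 4071 probes of the array passed at 3 h, and 0 of the 31 splicing probes. With extreme values kept, 6 of 13372 passed at 3 h, and 0 of the 61 splicing probes. At such low shares, 0 among 31 or 61 probes says little about the members. Why the other probes passed was not tested. Intensities are not among the values, so signal over background could not be given.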

Other observations

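Some probes that could not be tested had values that no comparison uses. Lsm11 probe 5581 was at the repeated extreme value on all 4 arrays at 3 h and had measured log2 ratios of -0.115 and -2.205 on 10 h replicates 1 and 2. Srsf6 was at the extreme value on both Cy5 arrays at 3 h and had -1.493, 3.6 and -1.69 at 10 h. Snrpa1 was at it on 3 h replicates 1 and 3 and had 1.544, -0.4 and 1.954 at 10 h. Srsf9 was at it on the same 2 arrays and had -0.488, 0.278 and -0.953 at 10 h. A further Hnrnpll probe was above 0 on all 4 arrays at 3 h (0.035, 0.509, 0.897 and 0.52) and on the only array measured at 10 h (1.317).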
